A study of Mus musculus with 33 samples.

Results

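The genes described here are 8 transcripts that heart muscle makes under mechanical load: the natriuretic peptide genes Nppa and Nppb, and the muscle genes Ankrd1, Csrp3, Xirp1, Xirp2, Fhl1 and Fhl2. They were chosen by symbol, and all 8 were found among the 14862 gene rows of a table of raw read counts in 33 single mouse heart cells. The cells came from the ventricles of transgenic mice with mAG-hGem, a green fluorescing fusion of geminin from the FUCCI cell cycle reporter, whose signal accumulates between S phase and M phase. They were sorted by that signal into mAG-hGem positive (cycling, written mAG+ below) and mAG-hGem negative (mAG-) cells, at embryonic day 14.5 (E14.5) and at postnatal day 5 (P5). This gave 10 E14.5 mAG+, 11 E14.5 mAG-, 6 P5 mAG+ and 6 P5 mAG- cells, all from animals with the reporter. The labels name no strain, sex or animal and do not say whether cells were pooled from several hearts, and the reporter's promoter is not given in the sources used here. Every cell was labelled a cardiomyocyte after a PCR that found the troponin gene Tnnt2. Each deposited sample is 1 cell, so each group stands for 1 sample, no difference between groups has a replicate check, and no test was made from cells.

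Nppa and Nppb encode the prohormones of atrial and B-type natriuretic peptide, which heart muscle secretes when its wall is stretched, and which act on guanylyl cyclase receptors in vessels, kidney and other heart cells. In the embryo Nppa is known from atrial and trabecular myocardium, and both peptides are switched on again in the ventricle of the failing adult heart. The other members act at the sarcomere: Ankrd1 binds the elastic part of titin and also enters the nucleus, Csrp3 (muscle LIM protein) sits at the Z-disc, Xirp1 and Xirp2 bind actin at the intercalated disc, and Fhl1 and Fhl2 are LIM domain proteins that bind titin.

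Not all cells carried the markers that their label implies. In 25 cells the summed counts per 1000000 reads (CPM) of 11 cardiomyocyte markers exceeded those of 5 other marker lists, and these cells are called cardiomyocyte-led. They were all 10 E14.5 mAG+, 10 of 11 E14.5 mAG-, 5 of 6 P5 mAG+ and 0 of 6 P5 mAG- cells. Cell N10 (E14.5 mAG-) had 46245 CPM of fibroblast and mural markers beside 19925 CPM of cardiomyocyte markers. Cell L2P12 (P5 mAG+) had 15440 CPM of endothelial markers beside 101 CPM of cardiomyocyte markers. Among the P5 mAG- cells, L2N4, L2N7 and L2N9 were led by endothelial, L1N3 and L2N10 by red blood cell, and L2N12 by fibroblast and mural markers, and their cardiomyocyte markers summed to 0.415 to 3289 CPM. Totals ran from 2.55 to 38.5 M (1 M is 1000000 counts) per cell, with group medians of 11.5, 16.9, 13.9 and 12.7 M in the order given above. Between the 3 groups that held cardiomyocyte-led cells, counts of genes past 2-fold are given with and without N10 and L2P12, that is, for all cells and for cardiomyocyte-led cells.

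Nppb and Nppa are neighbours on mouse chromosome 4 (build GRCm38, GENCODE annotation; the submitters' processing notes name the same build as mm10). Nppb spans chr4:147985788-147987205 and Nppa chr4:148000722-148002079, both on the plus strand, with 13516 bases and 0 annotated genes between them. Upstream sequence from RefSeq (assembly GRCm38.p6) was matched for 7 of the 8 members, and 250 bases before each start were searched on both strands. The motifs were M-CAT, which TEAD factors bind, as CATTCC, then the motif of GATA factors as GATAA, then that of NK2 factors such as Nkx2-5 as AAGTG, then the TATA box as TATAAA, and by name CArG and MEF2. Over all 32851 windows of this length, 12.6% held M-CAT, 22.6% GATA, 40.7% the NK2 motif, 12.4% TATA, 1.47% CArG and 0.508% MEF2. The sequences below are shown because these members differed most between ages or between cells of a group, or were the most abundant. They are written 5′ to 3′ on the strand of the gene, and capitals mark matches to M-CAT, GATA, CArG or MEF2. The windows of Nppa (chr4:148000472-148000721, plus strand), Xirp2 (chr2:67445752-67446001, plus strand) and the inner start of Fhl2 (chr1:43163962-43164211, minus strand) are given whole. Nppb (chr4:147985793-147985822) and Ankrd1 (chr19:36120037-36120066 and chr19:36119950-36119979, minus strand) are given as stretches of 30 bases, since their windows reach into annotated exons. These stretches lie before the RefSeq starts used here but inside the gene spans of the GENCODE annotation, which begin further upstream.
Nppa: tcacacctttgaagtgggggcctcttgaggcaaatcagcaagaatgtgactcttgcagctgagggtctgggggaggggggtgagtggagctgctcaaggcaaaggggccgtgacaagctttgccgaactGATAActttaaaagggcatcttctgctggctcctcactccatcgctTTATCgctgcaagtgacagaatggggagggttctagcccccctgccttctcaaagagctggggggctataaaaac
Nppb: caGGAATGcagctGATAAatcagaGATAAc
Ankrd1 upper: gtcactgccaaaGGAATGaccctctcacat
Ankrd1 lower: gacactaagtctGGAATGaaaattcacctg
Xirp2: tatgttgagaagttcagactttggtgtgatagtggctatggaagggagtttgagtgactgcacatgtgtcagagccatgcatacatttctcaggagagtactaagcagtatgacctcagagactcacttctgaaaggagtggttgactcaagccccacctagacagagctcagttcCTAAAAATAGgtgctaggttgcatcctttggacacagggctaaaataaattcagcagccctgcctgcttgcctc
Fhl2: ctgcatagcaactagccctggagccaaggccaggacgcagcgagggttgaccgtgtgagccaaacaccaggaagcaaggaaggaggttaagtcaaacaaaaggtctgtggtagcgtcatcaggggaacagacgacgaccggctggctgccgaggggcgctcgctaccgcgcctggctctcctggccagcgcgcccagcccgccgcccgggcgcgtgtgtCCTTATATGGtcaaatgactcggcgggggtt

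The Nppa window held 2 GATA matches, 2 NK2 matches and 1 TATA match. The Nppb window held 1 M-CAT match beside 2 GATA matches within the 30 bases shown, and 1 TATA match closer to the start. Ankrd1 had 2 M-CAT matches and 1 GATA match, which lies outside the stretches shown. Xirp2 had 1 MEF2 match and 1 NK2 match. Fhl2 had 1 CArG match in each of 2 windows, and its outer window, which is not shown, also had 1 GATA match and 1 TATA match. None of the matches in the printed sequences overlapped another. A match is a description of letters, not evidence of a bound site.

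Set per kilobase of annotated exon, Ankrd1 and Fhl2 were the most abundant members in the 3 groups that held cardiomyocyte-led cells. In E14.5 mAG+ cells the level, in CPM of the summed counts per kilobase, was 1716 for Ankrd1, 1057 for Fhl2, 178 for Csrp3 and 69.9 for Fhl1. It was 39.2 for Nppb, 36.9 for Nppa, 1.67 for Xirp1 and 0.00264 for Xirp2. In P5 mAG+ cells the order differed at the natriuretic peptides: Nppb stood at 474 and Nppa at 242 per kilobase, above Csrp3 at 194 and Fhl1 at 29.3, while Ankrd1 stood at 860 and Fhl2 at 655. The place of Nppa rests on cell L2P3, which held 99.9% of its counts. Its median over P5 mAG+ cells was 0, against 227 per kilobase for Csrp3. Without division by length the order differed, with Csrp3 at 517 CPM above Nppb at 370 and Nppa at 209 CPM. Whether counts scale with exon length in these libraries was not tested. In E14.5 mAG- cells Ankrd1 was again highest at 1088 per kilobase, followed by Fhl2 at 853 and Csrp3 at 337, and Nppa was at 0.532. Without N10 Fhl2 came first in this group, at 861 per kilobase, and Ankrd1 stood at 759. Medians over all cells of the group also put Fhl2 first, at 773 against 654 per kilobase. In CPM of the summed counts, Ankrd1 stayed first without N10, at 2190 against 1634 for Fhl2. The ranges over cells of neighbours in the orders per kilobase overlapped, with 1 exception. In E14.5 mAG+ cells Ankrd1 ran from 163 to 8361 and Fhl2 from 369 to 3392 per kilobase, and Fhl2 lay above Csrp3, which ran from 97.9 to 255, without overlap.

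**Figure D1:**
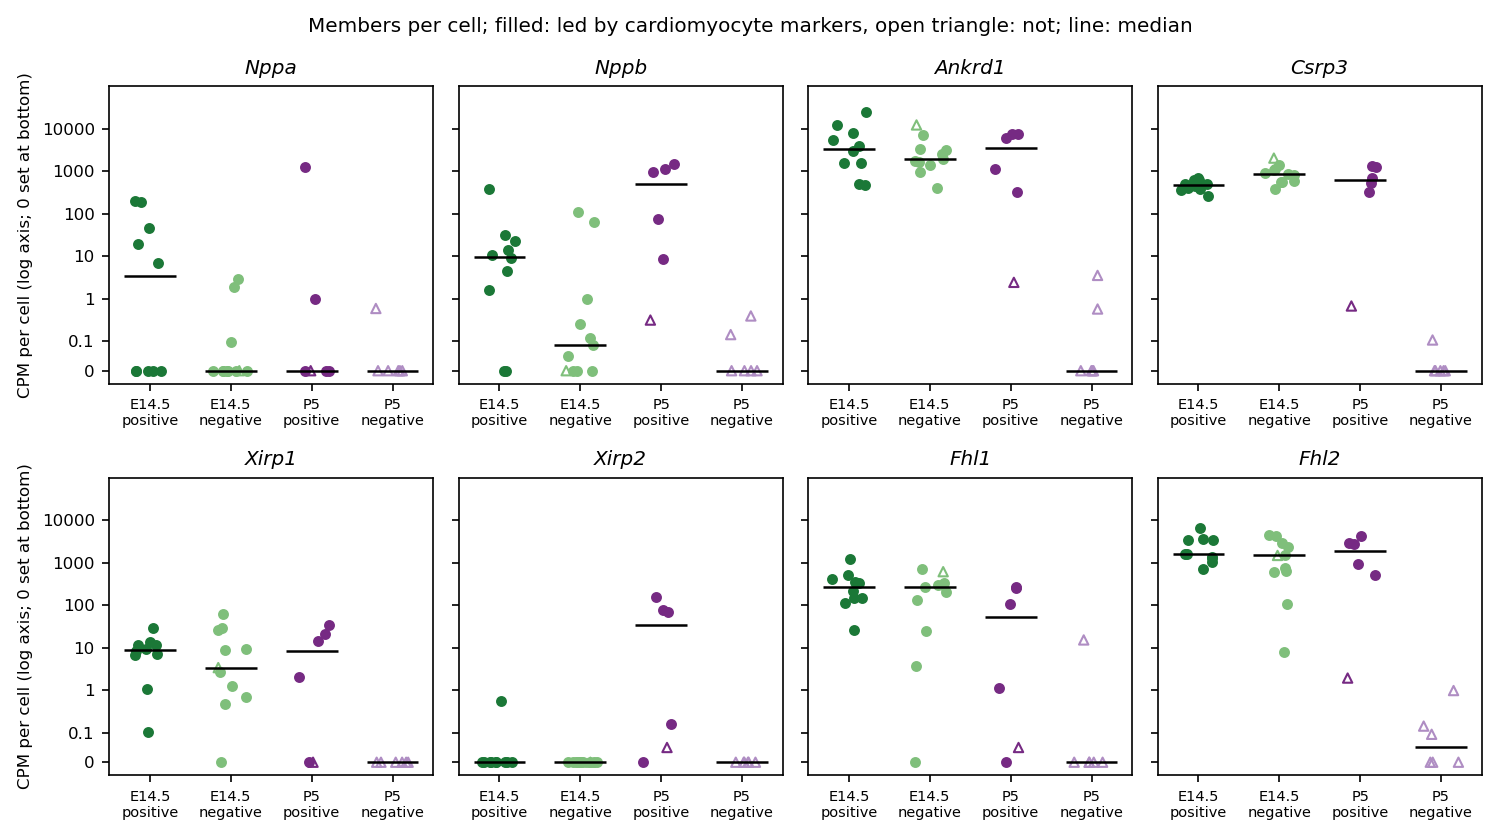
CPM per cell (log axis, with 0 set at the bottom) of the 8 members in the 4 groups; each point is a cell, filled when led by cardiomyocyte markers and an open triangle when not, and the line is the group median. Ankrd1, Csrp3 and Fhl2 are high in nearly all cardiomyocyte-led cells, while Nppa, Nppb and Xirp2 are high in some cells only, and the 6 P5 mAG- cells lie at or near 0.

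Nppa was high in a minority of cells, and its group values rest on few of them. The E14.5 mAG+ cells ran from 0 through a median of 3.42 to 201 CPM: G1 at 201, G2 at 190, G25 at 46.6, G27 at 18.7 and G28 at 6.83 CPM held its reads, and the other 5 cells had none. Among E14.5 mAG- cells 3 of 11 had a read, with a highest value of 2.94 CPM, so all 5 positive cells with reads lay above every negative cell although the groups overlapped at 0. In the summed counts Nppa stood at 31.9 CPM (exact 95% Poisson interval 31.0 to 32.8) in E14.5 mAG+ and at 0.460 CPM (0.370 to 0.566) in E14.5 mAG- cells. Positive over negative cells, the log2 ratio was 6.11 (exact binomial interval 5.81 to 6.43) and 5.97 without N10. It ran from 5.57 to 7.85 when each cell was left out in turn. These intervals cover counting error only, and amplified reads are not independent molecules.

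At P5 Nppa was concentrated in a single cell. The P5 mAG+ cell L2P3 had 1262 CPM, the highest Nppa value of all 33 cells, L2P10 had 0.955 CPM, and the other 4 had no read. The summed level of P5 mAG+ cells was 209 CPM, of which 99.9% of the counts came from L2P3. The log2 ratio over E14.5 mAG+ cells was 2.71 (2.67 to 2.76), but -7.68 without L2P3, so the direction of this ratio is that of 1 cell. P5 mAG- cells had 3 Nppa reads, all in L2N4. The Nppa gene overlaps the antisense gene Gm13054, and whether counting used strand is not given in the sources used here, so reads of these 2 genes may not be separable.

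Nppb was more widespread than its neighbour and stood highest after birth. E14.5 mAG+ cells ran from 0 through a median of 9.66 to 384 CPM, with G2 far above the next cell, G28, at 30.4 CPM. E14.5 mAG- cells ran from 0 through 0.0804 to 110 CPM, with only N5 at 110 and N8 at 63.6 CPM above 1 CPM. P5 mAG+ cells ran from 0.311 in L2P12 through 500 to 1495 CPM.
The P5 mAG+ cells L1P5 (1495 CPM), L2P10 (1120 CPM) and L2P3 (924 CPM) all exceeded the highest of the 21 E14.5 cells, whereas L2P8 at 76.2 and L2P7 at 8.70 CPM fell within the embryonic range. The summed level was 370 CPM (366 to 374) in P5 mAG+ against 30.6 CPM (29.8 to 31.5) in E14.5 mAG+ cells, a log2 ratio of 3.60 (3.55 to 3.64) or 12.1-fold. In cardiomyocyte-led cells it was 3.999, and leaving out each cell gave 3.04 to 5.10. Between E14.5 mAG+ and negative cells the log2 ratio was 1.58 (1.502 to 1.65) and 1.43 without N10, but 0.077 without G2 and 2.76 without N5. Reads of Nppb were present in 8 of 10 E14.5 mAG+ and 7 of 11 E14.5 mAG- cells. After thinning each cell to 2.55 M these were 8 and 4 cells, and 1 of 6 P5 mAG- cells.

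Nppa and Nppb did not simply follow each other, although the genes adjoin. G2 and L2P3 had over 100 CPM of both genes. L1P5 had 1495 CPM of Nppb and no Nppa read, and L2P10 had 1120 CPM of Nppb and 0.955 CPM of Nppa. G25, by contrast, had 46.6 CPM of Nppa and 1.61 CPM of Nppb. Over the 25 cardiomyocyte-led cells Spearman's rho between the 2 genes was 0.49, and over the 20 of them at E14.5 it was 0.62. These points share their group and library, many lie at 0, and the values are given as a description.

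Ankrd1, an ankyrin repeat protein of the titin I-band that also acts on transcription, was the most abundant member per kilobase in E14.5 mAG+ and P5 mAG+ cells. In the summed counts per kilobase of E14.5 mAG- cells it ranked first only with N10 included, as given above, but in CPM it ranked first with and without N10. Its gene lies at chr19:36111961-36120099 on the minus strand. E14.5 mAG+ cells ran from 470 in G5 through a median of 3342 to 24131 CPM in G10, E14.5 mAG- cells from 403 in N28 through 1887 to 12117 CPM in N10, and P5 mAG+ cells from 2.399 in L2P12 through 3496 to 7488 CPM in L1P5. All cardiomyocyte-led cells had at least 328 CPM, and the 3 groups overlapped. The summed level was 4954 CPM in E14.5 mAG+ and 3141 CPM in E14.5 mAG- cells, a log2 ratio of 0.66 (0.65 to 0.66). Without N10 it was 1.18 and past 2-fold, and without G10, which held 31.1% of the positive group's counts, it was 0.21. In P5 mAG+ cells the summed level was 2483 CPM, just short of 2-fold below E14.5 mAG+ cells, with a log2 ratio of -0.997 that became -0.59 without L2P12. Medians over cells gave 0.065 for the same comparison. The all-gene median of this comparison was -0.39 with all cells and -0.89 in cardiomyocyte-led cells, below the led-cell ratio of Ankrd1.

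Csrp3, the muscle LIM protein of the Z-disc, was the most even member, with 261 to 1396 CPM over the 25 cardiomyocyte-led cells. Its gene lies at chr7:48830398-48848033 on the minus strand. E14.5 mAG+ cells ran from 261 in G6 through a median of 469 to 682 CPM in G2. E14.5 mAG- cells ran from 372 in N3 through 860 to 2011 CPM in N10, and P5 mAG+ cells from 0.666 in L2P12 through 606 to 1291 CPM in L2P10.
None of the 10 E14.5 mAG+ cells reached the median of the negative cells, and 7 of 11 negative cells lay above the highest positive cell, although the ranges overlapped. The summed level was 476 CPM (473 to 479) in E14.5 mAG+ and 901 CPM (897 to 905) in E14.5 mAG- cells. Positive over negative cells, the log2 ratio was -0.92 (-0.93 to -0.91), -0.72 without N10, and between -1.03 and -0.72 when each cell was left out, with a value past 2-fold only without N28. Against E14.5 mAG+ cells, P5 mAG+ cells stood at 517 CPM, a log2 ratio of 0.12, or 0.52 in cardiomyocyte-led cells, and -0.27 without L2P10.

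Xirp1 and Xirp2, actin-binding repeat proteins of the intercalated disc, had low levels per kilobase, Xirp1 at both ages and Xirp2 almost only after birth. Xirp1 (chr9:120013755-120023598, minus strand) had a read in all 10 E14.5 mAG+ and 10 of 11 E14.5 mAG- cells. E14.5 mAG+ cells ran from 0.104 through a median of 8.66 to 28.8 CPM, E14.5 mAG- cells from 0 through 3.36 to 61.1 CPM in N21, and P5 mAG+ cells from 0 through 8.18 to 33.9 CPM in L2P8. The 3 groups overlapped, and the summed levels of 9.75, 9.40 and 15.3 CPM lay within 2-fold of each other. In cardiomyocyte-led cells the log2 ratio of P5 mAG+ over E14.5 mAG+ was 1.06, past 2-fold, and without L2P8, which held 64.1% of the P5 counts, the ratio over all cells was -0.33. Xirp1 overlaps Cx3cr1 on the same strand.

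Xirp2 (chr2:67446002-67526614, plus strand) was read almost only after birth. At E14.5 it had 5 reads in G1 (0.564 CPM) and none in the other 20 cells, which in the 11 negative cells allows a summed level of up to 0.0153 CPM. P5 mAG+ cells ran from 0 in L1P5 through a median of 34.7 to 153 CPM in L2P3. L2P10 at 76.7 and L2P8 at 69.3 CPM were also far above every embryonic cell, while L2P7 had 0.160 CPM and L2P12 1 read. The summed level was 55.8 CPM (54.3 to 57.4) in P5 mAG+ and 0.0316 CPM (0.0103 to 0.0738) in E14.5 mAG+ cells, a log2 ratio of 10.79 (9.56 to 12.41). It was 11.19 in cardiomyocyte-led cells and between 10.18 and 11.44 when each cell was left out. After thinning, 4 of 6 P5 mAG+ cells and 1 of 10 E14.5 mAG+ cells kept a read. Xirp2 overlaps the antisense gene Gm13601, with the same limit on strand as for Nppa.

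Fhl1 and Fhl2, LIM proteins that bind titin and signalling kinases, were read in most cardiomyocyte-led cells. Fhl1 (chrX:56731787-56793346, plus strand) ran from 26.03 through a median of 271 to 1228 CPM in E14.5 mAG+, from 0 through 267 to 708 CPM in E14.5 mAG- and from 0 through 52.5 to 269 CPM in P5 mAG+ cells. None of the 6 P5 mAG+ cells reached the E14.5 mAG+ median, and 5 of 10 E14.5 mAG+ cells lay above the highest P5 mAG+ cell. The summed level was 260 CPM (257 to 262) in E14.5 mAG+ and 109 CPM (106.6 to 111) in P5 mAG+ cells, a log2 ratio of -1.26 (-1.29 to -1.22). It was -0.85 without L2P12 and -0.83 without G10, short of 2-fold in both cases. E14.5 mAG+ and negative cells differed by a log2 ratio of 0.12, with -0.30 without G10 and 0.38 without N10.
Fhl2 (chr1:43123074-43196984, minus strand) ran from 701 through 1602 to 6435 CPM in E14.5 mAG+, from 7.72 in N21 through 1466 to 4467 CPM in E14.5 mAG- and from 1.91 in L2P12 through 1853 to 4290 CPM in P5 mAG+ cells. The groups overlapped, and N21 with 7.72 and N7 with 105 CPM stood below all other cardiomyocyte-led cells. The log2 ratio of positive over negative cells at E14.5 was 0.31 (0.30 to 0.32), and that of P5 mAG+ over E14.5 mAG+ was -0.69 (-0.70 to -0.68) or -0.29 without L2P12.

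**Figure D2:**
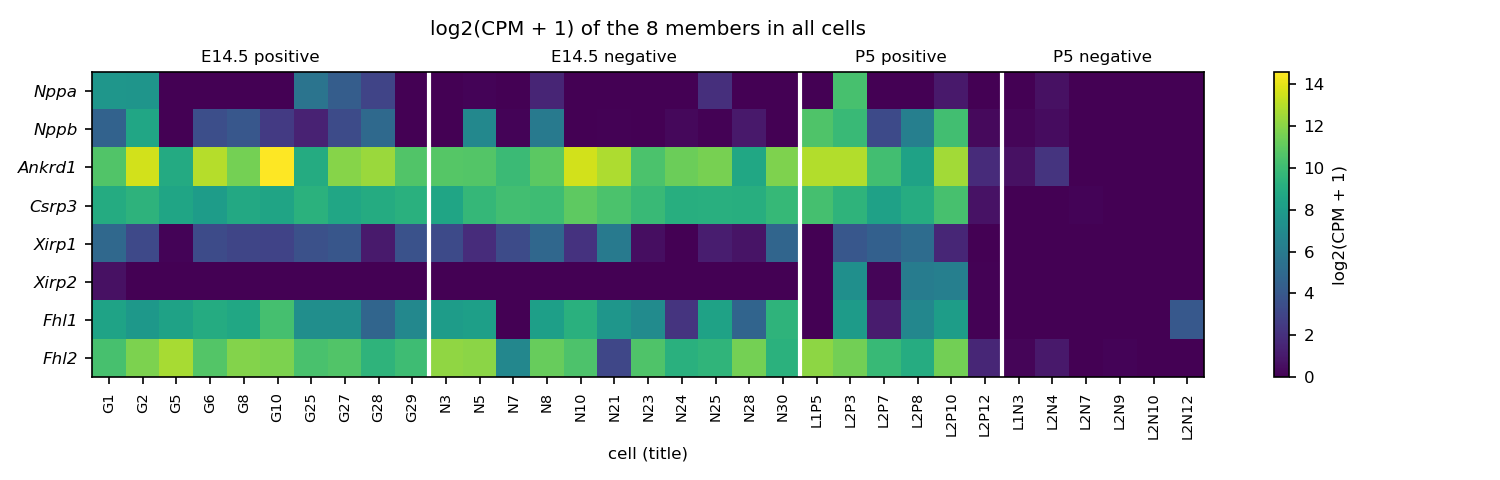
Heat map of log2(CPM + 1) for the 8 members (rows) in the 33 cells (columns, named by their titles), with white lines between groups. Ankrd1, Csrp3 and Fhl2 are bright in nearly all cells outside the P5 mAG- group and L2P12, Xirp2 is bright in 3 P5 mAG+ cells, and Nppa in a few scattered cells.

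The comparison of cycling cells between ages asks which members differ after birth within the mAG-hGem positive gate. Nppa, Nppb and Xirp2 were at least 2-fold higher in P5 mAG+ than in E14.5 mAG+ cells, and Fhl1 at least 2-fold lower. These are 3 of 8 and 1 of 8 members, beside 30.3% and 40.7% of all 12262 genes that had 10 or more counts over the groups compared, so the count of higher members is near the background. The higher value of Nppa rests on L2P3, without which its log2 ratio was -7.68. The median log2 ratio of the 8 members was 0.39 and that of all genes tested -0.39. Without L2P12 the counts were 4 and 0 of 8, with Xirp1 added and Fhl1 lost, beside 24.5% and 48.1% of genes. Endothelial markers reached 15440 CPM in L2P12 and at most 21.6 CPM in the other P5 mAG+ cells.

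At E14.5, mAG+ and mAG- cells differed in few members. Nppa and Nppb were at least 2-fold higher in positive cells and no member was 2-fold lower, which is 2 and 0 of 7 members beside 22.5% and 29% of 12633 genes. Xirp2 had too few reads to be counted. Without N10, Ankrd1 joined the higher members, which made 3 of 7 beside 24.1% of genes. No member was lower without N10 either, beside 27.6% of genes. The medians with all cells were 0.31 for the 7 members and -0.16 for all genes. With all cells the count of higher members was again near the background, and the count of lower members, 0 of 7, was below it.

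**Figure D3:**
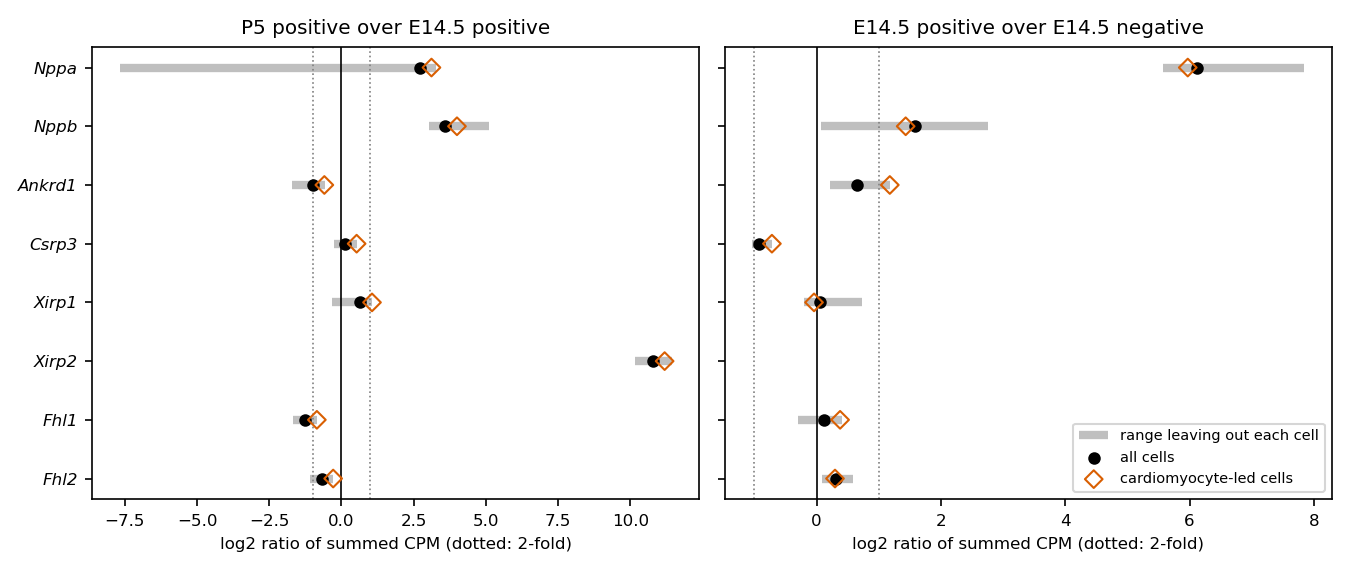
Log2 ratio of summed CPM per member for P5 mAG+ over E14.5 mAG+ cells (left) and E14.5 mAG+ over E14.5 mAG- cells (right). Black points use all cells, open diamonds cardiomyocyte-led cells, grey bars span the values when each cell is left out, and dotted lines mark 2-fold; the bar of Nppa on the left reaches from -7.68 to 3.26, and Xirp2 is absent on the right.

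Comparisons with the P5 mAG- cells set different cell types side by side, since none of these 6 cells was cardiomyocyte-led, and type and gate cannot be told apart there. All 8 members were at least 2-fold higher in P5 mAG+ than in P5 mAG- cells and none was lower, beside 34.2% and 39.4% of 11567 genes. The median log2 ratio of the members was 12.84 and that of all genes -0.29. Csrp3 stood at 517 against 0.0362 CPM, Fhl2 at 1242 against 0.0844 CPM and Ankrd1 at 2483 against 0.265 CPM. Of the members, only Csrp3 and Fhl2 had ranges over cells that did not overlap, and the share of all genes without overlap was not computed. Xirp1 and Xirp2 had no read in P5 mAG- cells, and they were, against a group floor of 3 counts, at least 424-fold and 1544-fold higher in P5 mAG+ cells. Fhl1 was the exception among P5 mAG- cells: the fibroblast and mural led cell L2N12 had 15.1 CPM and the other 5 had none. The log2 ratio of Fhl1 was 5.15 with that cell and 11.23 without it.

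Against E14.5 mAG- cells, all 7 members that could be counted were at least 2-fold lower in P5 mAG- cells and none was higher, beside 41.1% and 33.6% of 12552 genes. The log2 ratios ran from -14.60 for Csrp3 to -3.67 (-5.97 to -2.08) for Nppa, which had 3 and 90 reads. Ankrd1, Csrp3 and Fhl2 did not overlap between these groups, and Xirp1 was at least 259.9-fold lower. The share of all genes without overlap was not computed here either. Of the 292 member reads in P5 mAG- cells, 254 were the Fhl1 reads of L2N12. The endothelial-led cell L2N4 held 28 of the other 38, with 3.496 CPM of Ankrd1, 0.971 CPM of Fhl2, 0.583 CPM of Nppa and 0.388 CPM of Nppb. It also had the highest cardiomyocyte marker sum of the P5 mAG- cells, 3289 CPM, and the part of such reads in these values was not tested. For comparison, the endothelial gene Cdh5 had no read in any of the 21 E14.5 cells and a read in all 6 P5 mAG- cells.

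Within the 5 cardiomyocyte-led P5 mAG+ cells, several members split the cells in the same way, a pattern noticed after the values were seen. L1P5, L2P3 and L2P10 had 5867 to 7488 CPM of Ankrd1, and L2P7 and L2P8 had 1125 and 328 CPM. The same 3 cells had 2798 to 4290 CPM of Fhl2 against 908 and 521 CPM, and 702 to 1291 CPM of Csrp3 against 320 and 510 CPM. Nppb, as given above, divided them likewise. The share of all genes that divide these cells in this way was not computed, so the split is not shown to be particular to the members.
Xirp1 was ordered the other way, with 0, 14.4 and 1.99 CPM in L1P5, L2P3 and L2P10 and 20.999 and 33.9 CPM in L2P7 and L2P8. Xirp2 crossed this order, since L1P5 had none and L2P8 had 69.3 CPM. Fhl1 crossed it too, with no read in L1P5, 252 and 269 CPM in L2P3 and L2P10, and 1.12 and 104 CPM in L2P7 and L2P8. Nppa was high in L2P3 only and so did not follow the split. The cardiomyocyte marker sums were 24923, 40989 and 67476 CPM in L1P5, L2P3 and L2P10 and 47630 and 103575 CPM in L2P7 and L2P8, and L1P5 was the shallowest cell of all at 2.55 M. Whether these differences take part in the split was not tested.

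Over all 25 cardiomyocyte-led cells the members were only loosely related to each other. Of the 28 pairs, Nppa with Nppb had the highest Spearman's rho, 0.49, and Xirp1 with Fhl2 the lowest, -0.43. Ankrd1 had a rho of 0.37 with Nppb and 0.17 with Fhl2. Csrp3 and Fhl2 had -0.21 over all 25 cells and -0.51 over the 20 at E14.5. The rho with the total count of a cell was -0.40 for Fhl2 and between -0.27 and 0.082 for the others. All these values are descriptions over cells that share group, library type and normalisation to the total.

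**Figure D4:**
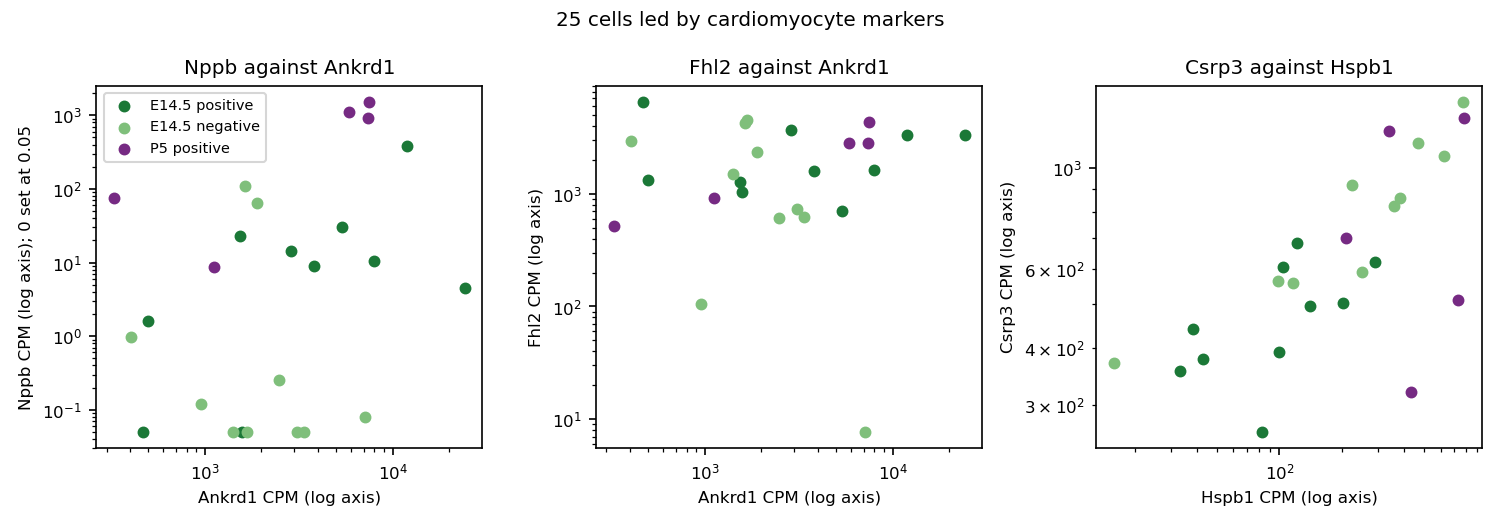
CPM per cell (log axes) in the 25 cardiomyocyte-led cells, coloured by group: Nppb against Ankrd1 (Nppb at 0 is set at 0.05), Fhl2 against Ankrd1, and Csrp3 against Hspb1. The 3 P5 mAG+ cells with most Nppb also have at least 5867 CPM of Ankrd1, Fhl2 and Ankrd1 show no clear order, and Csrp3 and Hspb1 are ordered alike among E14.5 cells.

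Each member was then compared with 5270 genes that reached 10 CPM in at least 10 of the 25 cells. Csrp3 was most like Hspb1, a small heat shock protein of the muscle cytoskeleton, with a rho of 0.71 over 25 cells and 0.89 over the 20 at E14.5. Hspb1 itself stood at 126 CPM in E14.5 mAG+, 268 CPM in E14.5 mAG- and 422 CPM in P5 mAG+ cells. Nppb was most like Atp5f1 (0.74), Etfb (0.73) and Cox5a (0.70), which encode mitochondrial proteins of ATP synthesis, electron transfer and the respiratory chain. Fhl2 was most like Dld (0.76) and Cox7b (0.73), which also encode mitochondrial enzymes, and the row Mir703 (0.68).
Fhl1 was most like Rc3h2 (0.81), Setd5 (0.79) and Thumpd3 (0.77), and Xirp1 like Pgp (0.74), Trp53inp2 (0.72) and Dag1 (0.69), the last a link of muscle membrane to matrix. Ankrd1 had weaker best matches, led by Slirp (0.58). Nppa, which reached 10 CPM in 5 of the 25 cells, was most like Mfap3 (0.66), Irx3 (0.65) and Ube2d1 (0.63). Irx3, a homeobox gene known from trabeculae and the conduction system, stood at 45.3 CPM in E14.5 mAG+ and 7.92 CPM in E14.5 mAG- cells, but 74.8% of the former's counts lay in G28, without which it stood at 13.4 CPM. Xirp2 reached 10 CPM in 3 cells, too few to rank its matches. The highest of 5270 correlations over few cells is high by selection, and no p-value is given.

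The titles of the E14.5 cells carry numbers in the ranges 1 to 10 and 21 to 30, whose meaning the labels do not give, and several members differed between these ranges. Fhl2 stood at 3346 CPM in the E14.5 mAG+ cells numbered up to 10 and at 1218 CPM in those numbered from 21. The same pair of values was 513 and 111 CPM for Fhl1, 8004 and 3163 CPM for Ankrd1 and 64.0 and 11.1 CPM for Nppb, but 433 and 501 CPM for Csrp3. Among E14.5 mAG- cells Nppb stood at 35.0 and 0.294 CPM. Csrp3 was lower in positive than in negative cells in both ranges, at 433 against 1270 CPM and at 501 against 752 CPM. Nppa was higher in positive cells in both, at 57.8 against 0.427 CPM and at 16.7 against 0.474 CPM. Nppb was less than 2-fold higher in the lower range, at 64.0 against 35.0 CPM. With only the E14.5 mAG+ cells numbered from 21 and the P5 mAG+ cells titled L2, the log2 ratio of Fhl1 between ages was 0.013 in place of -1.26.

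Among the 14 genes of the natriuretic peptide system, which cover receptors, processing enzymes, degrading enzymes and cyclic GMP targets, 1 was at least 2-fold higher and 5 lower of 12 tested in P5 mAG+ over E14.5 mAG+ cells. In cardiomyocyte-led cells 2 were higher and 7 lower of 12. The list's median was -0.87 beside -0.39 for all genes, and -1.13 beside -0.89 in cardiomyocyte-led cells, and the shares of all genes were 30.3% and 40.7%, or 24.5% and 48.1% in cardiomyocyte-led cells. Corin and Npr2 are named here after their values were seen. The receptor genes were read mainly in P5 mAG- cells, which had almost no reads of the peptides. Npr1, the guanylyl cyclase receptor of both peptides, stood at 51.4 CPM in P5 mAG- and had no read in P5 mAG+ cells, which makes it at least 1579-fold higher in the former. It reached 464 CPM in the endothelial-led cell L2N4 and 187 CPM in L1N3, and without L2N4 the group stood at 24.1 CPM. Npr3, the clearance receptor, stood at 56.2 CPM in P5 mAG- cells, 99.8% of whose counts lay in the fibroblast and mural led cell L2N12 at 276 CPM. Npr2, the receptor of the C-type peptide, stood at 32.96 CPM in P5 mAG- and 0.336 CPM in P5 mAG+ cells, and reached 17.7 CPM in the E14.5 mAG- cell N7. Without L2N7, P5 mAG- cells stood at 16.0 CPM of Npr2, and all Npr2 reads of P5 mAG+ cells lay in L2P8.
Corin, the protease that cleaves the Nppa product, went the opposite way, with 43.0 CPM in E14.5 mAG+, 84.2 CPM in E14.5 mAG- and 16.1 CPM in P5 mAG+ cells and no read in P5 mAG- cells. Single cells set these levels: without G28, Corin stood at 16.4 CPM in E14.5 mAG+ cells, close to the P5 level, without N28 at 38.5 CPM in E14.5 mAG- and without L2P8 at 8.93 CPM in P5 mAG+ cells. The cyclic GMP phosphodiesterase Pde2a stood at 96.8 CPM in P5 mAG- and 23.3 CPM in P5 mAG+ cells, and 78.2% of the latter's counts came from L2P12. Without L2N7 the P5 mAG- level was 53.5 CPM, and without L2P12 the P5 mAG+ level was 6.74 CPM. Ide, which encodes the insulin-degrading enzyme, also known to cleave these peptides, stood at 80.2, 126 and 43.2 CPM in E14.5 mAG+, E14.5 mAG- and P5 mAG+ cells.

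Of 6 close relatives of the members in the table, 2 were at least 2-fold higher and 2 lower in P5 mAG+ over E14.5 mAG+ cells, beside 30.3% and 40.7% of all genes. In cardiomyocyte-led cells 2 were higher and 3 lower, beside 24.5% and 48.1%. Lmcd1, a LIM protein of muscle, stood at 117 CPM in E14.5 mAG+ and 5.41 CPM in P5 mAG+ cells, a log2 ratio of -4.43 that ran from -5.15 (without L2P10) to -3.98 when each cell was left out. Csrp2 stood at 132 and 177 CPM in the same groups, a log2 ratio of 0.42 that was past 2-fold, at 1.44, without G27. That cell held 62.5% of the E14.5 counts. Csrp1 stood at 53.2 and 37.7 CPM, a log2 ratio of -0.50 that was -2.28 in cardiomyocyte-led cells.

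Of 24 genes for partners at the Z-disc, on titin and at adhesion sites, 5 were at least 2-fold higher and 6 lower in P5 mAG+ over E14.5 mAG+ cells, beside 30.3% and 40.7% of all genes, with a median of -0.52 beside -0.39. Actn2, the Z-disc crosslinker of actin, stood at 523 against 86.7 CPM, and Nrap, an actin-binding repeat protein, at 100 against 25.3 CPM. L2P8 held most P5 counts of both, and without it the log2 ratios fell from 2.59 to 1.62 for Actn2 and from 1.99 to -0.17 for Nrap. Nexn, an actin-binding protein of the Z-disc, stood at 773 against 4776 CPM, and Pdlim3 at 11.4 against 101 CPM, or 2.90 CPM without L2P7. Without L2P12 the counts were 7 higher and 8 lower, beside 24.5% and 48.1% of genes, with a median of -0.37 beside -0.89. Between E14.5 mAG+ and negative cells 1 was higher and 2 lower of 23, beside 22.5% and 29% of genes. Without N10 the counts were the same, beside 24.1% and 27.6%. Among the lower genes was Itgb1bp2, a muscle protein that binds integrin, at 98.6 against 212 CPM, which was short of 2-fold without N25.

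A list of 15 transcription regulators held factors known to act on natriuretic peptide or other load-responsive promoters. Of these, 2 were at least 2-fold higher and 9 lower in P5 mAG+ over E14.5 mAG+ cells, beside 30.3% and 40.7% of all genes. In cardiomyocyte-led cells they were 1 and 9, beside 24.5% and 48.1%. The list's median was -1.43 beside -0.39, and -1.20 beside -0.89 in cardiomyocyte-led cells. Tbx20 stood at 36.7 against 646 CPM, Mef2a at 76.8 against 303 CPM, Gata6 at 122 against 327 CPM and Myocd, the cofactor of serum response factor, at 20.2 against 61.4 CPM. Without L2P7, Tbx20 stood at 19.0 CPM in P5 mAG+ cells, and without L2P12, Mef2a stood at 48.3 CPM. At E14.5, Gata6 stood at 327 CPM in mAG+ and 674 CPM in mAG- cells, short of 2-fold without N28. Of the 15, 3 were higher and 3 lower, beside 22.5% and 29% of genes, or 4 and 3 without N10, beside 24.1% and 27.6%.

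Of 16 other genes that respond to load, 5 were at least 2-fold higher and 6 lower in P5 mAG+ over E14.5 mAG+ cells, beside 30.3% and 40.7% of all genes, with a median of -0.59 beside -0.39. In cardiomyocyte-led cells they were 4 and 5 of 15, beside 24.5% and 48.1%, and the median of -0.21 lay above that of all genes, -0.89. Myh7, the slow myosin heavy chain of the embryonic ventricle, stood at 79.3 against 2029 CPM, and the immediate early gene Egr1 at 215 against 3452 CPM. In P5 mAG+ cells L2P8 held 74.0% of the Myh7 counts and L2P7 79.8% of the Egr1 counts, and without them these genes stood at 28.997 and 50.4 CPM. Edn1, which encodes endothelin, stood at 58.7 against 0.171 CPM, with 94.3% of the P5 counts in L2P8 and 4.73 CPM without it, and Hspb1 stood at 422 against 126 CPM. Between E14.5 mAG+ and negative cells 1 was higher and 8 lower of 16, and without N10 1 and 6 of 15, beside 22.5% and 29% of genes, or 24.1% and 27.6% without N10. Atf3 stood at 173 against 691 CPM, Hbegf at 26.7 against 151 CPM and Ctgf at 168 against 409 CPM there, and without N21 the log2 ratios were -1.38 for Hbegf and -0.74, short of 2-fold, for Ctgf, while Nppa and Nppb, as given above, were higher in the positive cells.

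Of the genes that mark chambers or wall layers, 2 were at least 2-fold higher and 5 lower of 9 in P5 mAG+ over E14.5 mAG+ cells, beside 30.3% and 40.7% of all genes, with a median of -3.39 beside -0.39. In cardiomyocyte-led cells they were 2 and 6 of 9, beside 24.5% and 48.1%, with a median of -4.28 beside -0.89. Myl7, the atrial light chain that embryonic ventricles also express, had no read in P5 mAG+ cells and 193 CPM in E14.5 mAG+ cells, at least 5925-fold lower; G27 held 60.4% of those counts, and without it the level was 101 CPM. Myl4 stood at 18.2 against 470 CPM, Hey2 at 22.7 against 237 CPM and Mycn at 11.2 against 187 CPM. L2P7 held 87.6% of the P5 counts of Hey2, which stood at 3.27 CPM without it, and L2P8 61.6% of those of Myl4, which stood at 9.88 CPM without it. No P5 mAG+ cell, L2P3 with its 1262 CPM of Nppa included, had a Myl7 read.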

How the data were processed

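Read counts were measured in 33 single cells. Per the labels' protocols, mRNA of single cells was turned into cDNA and then amplified by the antisense RNA method, and libraries were made with a TruSeq kit. The deposited table holds raw counts per gene, whole numbers that differ in total from cell to cell. The submitters' processing notes name CASAVA 1.8.2, STAR 2.4.0j, HTSeq 0.6.1p1 and mm10. Molecular identifiers and the use of strand are not given in the sources used here, so copies of 1 molecule cannot be told from several.

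From these counts, CPM was computed per cell and over the summed counts of a group, with exact Poisson intervals, and ratios of summed CPM with exact (Clopper-Pearson) binomial intervals at 95%. A group at 0 was set to a floor of 3 counts in all, which gives a bound. A gene was counted as higher or lower at 2-fold or more, if it had at least 10 counts over both groups. No test was run between groups, because no animal is named and cells are not replicates. Replicate numbers follow accession order only. Named genes are the 8 members, of each list at most 4 with the largest ratio at 50 CPM or more, and the 3 genes most like each member. The members and lists were chosen with earlier results of these data known. Markers were 11 cardiomyocyte, 8 endothelial, 7 fibroblast and mural, 5 red blood cell, 3 macrophage and 5 epicardial genes present in the table. Of the rows, 22 carry calendar dates in place of symbols and stayed in the totals only. Of nonzero values, 12.3% were 1 to 3 reads, so precision is limited for low genes. Pearson's r between cells was at most 0.867 (G1 with G2, log2 CPM over genes), and no cell was present under 2 names. The calculation was tested on simulated data. Tools were Python 3.11.15 with numpy 2.4.6, scipy 1.17.1 and pandas 2.3.3, and R 4.3.3 with edgeR 4.0.16 (TMM factors) and DESeq2 1.42.0 (size factors), the last 2 for alternatives only.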

Additional observations from a re-analysis of the deposited data

Results flagged for a closer look

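Dixon's limit was applied to each member in the 3 groups of 4 to 10 cells, and 13 of 24 combinations passed it. In each case the highest cell stood far from the next. Chance passes about 1 in 20 groups of normally spread values, a rate that does not hold for counts with many zeros: in 4 of the 13 all other cells of the group had no read, so that 1 cell with a read passes by construction. The limit describes single cells and is no test between groups, and the reason for these values was not tested.

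In E14.5 mAG+ cells, G2 had 384 CPM of Nppb, with 30.4 CPM in the next cell. G10 had 24131 CPM of Ankrd1 (next 11944) and 1228 CPM of Fhl1 (next 498). G1 had 28.8 CPM of Xirp1 (next 13.8) and 0.564 CPM of Xirp2, which no other embryonic cell had. G5 had 6435 CPM of Fhl2, with 3658 CPM in the next cell. In P5 mAG+ cells, L2P3 had 1262 CPM of Nppa, with 0.955 CPM in the next cell.

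In P5 mAG- cells the flagged values were low. L2N4 had 0.583 CPM of Nppa, 0.388 CPM of Nppb, 3.496 CPM of Ankrd1 and 0.971 CPM of Fhl2. L2N7 had 0.106 CPM of Csrp3, and L2N12 had 15.1 CPM of Fhl1, where the other 5 cells had no read.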

How the results depend on the processing

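Against P5 mAG- cells, medians over cells gave 7 in place of 8 higher members for P5 mAG+ cells and 5 in place of 7 lower members against E14.5 mAG- cells. The other alternatives that were run, leaving out each cell included, left both counts as they were. Between P5 mAG+ and E14.5 mAG+ cells, the number of higher members was 3 and ran from 2 to 4. The number of lower members was 1 with all cells, 2 with medians over cells, 0 with DESeq2 size factors, 3 at a threshold of 1.5-fold, and 0 in cardiomyocyte-led cells. It was 3 with the E14.5 cells titled 1 to 10 and 0 with those titled 21 to 30, each against the L2 cells at P5. Leaving out each cell gave 0 to 4: 4 without L2P3, 3 without L2P10, 2 without L1P5, G1, G5, G8, G25, G27 or G29, and 0 without L2P12 or G10. Ankrd1, at -0.997, lay next to the threshold in this comparison.

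Between E14.5 mAG+ and negative cells, the number of lower members was 0, and 1 (Csrp3) with DESeq2 size factors, at 1.5-fold and with titles 1 to 10; leaving out each cell gave 0 to 1. The number of higher members was 2, and 3 with medians over cells, at 1.5-fold and in cardiomyocyte-led cells, and 1 with titles 1 to 10; leaving out each cell gave 1 (without G2) to 3 (without N10). The log2 ratio of Nppa between P5 mAG+ and E14.5 mAG+ cells turned to -2.97 with medians over cells, and leaving out each cell gave -7.68 to 3.26. That of Fhl1 turned to 0.013 with titles 21 to 30. DESeq2 size factors moved the median of all genes by 0.38 between ages in positive cells, by -0.12 at E14.5 and by 0.24 in negative cells, and TMM factors by 0.16 between ages in positive cells and by 0.14 at P5. The cause of these changes was not tested. The values of named genes outside the members without single cells were chosen after seeing the data. No paired analysis was possible because the replicate numbers follow accession order only and pair no cells.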

Other observations

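Relatives of the members were read in the P5 mAG- cells, where the members themselves were near 0. Lmcd1 stood at 90.6 CPM in P5 mAG- and 5.41 CPM in P5 mAG+ cells, a log2 ratio of P5 mAG+ over P5 mAG- of -4.07. Csrp1 stood at 93.7 and 37.7 CPM in the same groups, and Csrp2 at 125 and 177 CPM. Single P5 mAG- cells reached 419 CPM of Lmcd1 in L1N3 and 432 CPM of Csrp2 in L2N4. Hspb1, the gene most like Csrp3 among cardiomyocyte-led cells, stood at 2150 CPM in P5 mAG- cells, with 8358 CPM in the red blood cell led cell L2N10, which had no Csrp3 read; without L2N10 the group stood at 838 CPM of Hspb1. Junb, an immediate early gene, stood at 364 CPM in P5 mAG-, 31.4 CPM in E14.5 mAG- and 6.13 CPM in P5 mAG+ cells, of which L2P7 held 92.4% of the counts.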
